A study of Sus scrofa with 6 samples.

Results

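Kinesins are motor proteins that hydrolyse ATP to walk along microtubules or to take microtubules apart at their ends. Some act almost only in dividing cells, where they separate the spindle poles, move and attach chromosomes and build the midzone in which the cell is cut apart, and their mRNAs are known to peak around mitosis. Others carry vesicles, organelles and ciliary cargo in cells at every stage, and in the gut epithelium they serve polarized transport and cell junctions. The kinesins taken here were the 38 gene IDs, of 31908 in the deposited table, whose symbol begins with KIF or KIFC followed by a number. They were divided by their known roles into 13 mitotic kinesins, 13 transport kinesins and 12 other kinesins of cilia, signaling, microtubule ends or a role not settled here.

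All libraries were made from IPEC-J2 cells, a line of pig small intestinal epithelium that grows in culture without having been derived from a tumor. The CON group was 3 libraries of cells given PBS for 24 h, and the CDCA group was 3 libraries of cells treated for 24 h with 50 μM chenodeoxycholic acid (CDCA), a primary bile acid. The comparison asks which mRNAs differed after the bile acid at a concentration the study chose from cell viability. The study calls its replicates biological. The labels do not say whether replicates were separate cultures, so p-values measure the spread between these libraries, which may be technical.

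Expression was given in transcripts per 1000000 (TPM), which is scaled to transcript length, so levels can be compared between genes. TPM values do not carry the number of reads behind a gene, so no counting interval is given. The listed TPM of a library summed to 351770 to 366073 and did not reach the nominal total of 1000000, and a gene's value covers only its listed transcripts. A gene was tested by limma on log2(TPM + 1) where its mean over the 6 libraries was at least 1 TPM, which held for 8708 genes and for 22 of the 38 kinesins. A call needed a Benjamini-Hochberg adjusted p (FDR) under 0.05 together with a log2 fold change of more than 1 in size. The other 16 kinesins lay under this limit and were not tested. The 6 listed epithelial markers summed to 624 to 648 TPM in CON and 1182 to 1322 TPM in CDCA. Among them CLDN4, a tight junction protein, was called higher, from 225 ± 11.2 to 806 ± 50.5 TPM, KRT8, KRT18 and EPCAM were listed at 64.6 to 238 TPM and were not called, and CDH1 and VIL1 were at most 0.64 TPM in any library. The 5 fibroblast markers summed to 0.93 to 1.82 TPM per library and 3 endothelial markers to 1.87 to 2.69 TPM. The 4 leukocyte markers summed to 1.26 to 2.49 TPM in CON and 6.49 to 7.24 TPM in CDCA. Most of that sum in CDCA was CD68, a lysosomal protein, which was called higher, from a mean of 0.087 to 4.84 TPM. CD14 stood at 0.85 to 1.17 TPM in CON and at 1.27 to 1.64 TPM in CDCA and was not called. CD3E had overlapping groups and was not tested, and PTPRC, the defining leukocyte marker, was at most 0.01 TPM. The part of other cells in the results was not tested.

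CDCA treatment was accompanied by lower mRNA of the mitotic kinesins that could be tested. Of the 13 mitotic kinesins, 8 passed the limit on expression, and 6 of these were called lower in CDCA: KIF22, KIF20A, KIF11, KIF2C, KIF15 and KIFC1. KIF23 and KIF18A fell by less than the limit on the fold change. Over all tested genes, 3.90% were called lower. With an FDR under 0.05 and no limit on size, all 8 tested mitotic kinesins were lower, against 23.9% of all tested genes. The CDCA libraries of these 8 genes all lay under the lowest CON library, which was so for 27.8% of all tested genes. Their median log2 fold change was -1.43, where that of all tested genes was 0.05. KIF2A, which takes microtubules apart also outside mitosis, was placed among the other kinesins with results of these data known. It was not lower in CDCA (log2 fold change 0.17, limma FDR 0.12), so the count of 8 of 8 depends on this placement. In bulk RNA, fewer cells in mitosis and less mRNA per mitotic cell cannot be told apart.

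KIF11 (Eg5, ENSSSCG00000010471) is the motor that slides antiparallel microtubules apart and so sets up the 2 poles of the spindle. It was listed at 38.2, 33.5 and 29.6 TPM in CON replicates 1, 2 and 3 and at 11.2, 10.1 and 10.4 TPM in CDCA replicates 1, 2 and 3. The lowest CON library was well above the highest CDCA library, and the CON libraries were spread more widely than the CDCA libraries. The mean fell from 33.7 ± 4.31 TPM in the CON group (SD, n = 3) to 10.6 ± 0.584 TPM in the CDCA group (SD, n = 3), a ratio of 0.314, with a log2 change of -1.58 (SE 0.10, limma FDR 3.72e-05). KIF15, a motor that can hold the poles apart beside KIF11, stood at 9.73, 9.15 and 7.71 TPM under CON against 2.94, 2.93 and 2.75 TPM under CDCA. Its ratio of 0.324 was close to that of KIF11, and its log2 change was -1.34 (SE 0.10, limma FDR 6.48e-05). KIFC1 (HSET), which walks toward minus ends and draws microtubules together at the poles, stood at 8.74, 8.59 and 7.66 TPM under CON against 2.27, 4.08 and 3.21 TPM under CDCA. The CDCA libraries of KIFC1 were uneven but did not reach the CON libraries, and the log2 change was -1.18 (SE 0.16, limma FDR 0.00112).

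KIF2C (MCAK, ENSSSCG00000003931) does not walk: it takes microtubules apart at centromeres and so releases wrong attachments of chromosomes. It had the highest mean of any listed kinesin in CON, at 39.0, 36.6 and 34.2 TPM, and was listed at 11.4, 12.9 and 12.0 TPM in CDCA. KIF2C was above KIF11 within each CON library, though the ranges of both genes over the CON libraries overlapped, and the difference was not tested. The mean of KIF2C fell from 36.6 ± 2.41 TPM in the CON group (SD, n = 3) to 12.1 ± 0.753 TPM in the CDCA group (SD, n = 3), a ratio of 0.330, with a log2 change of -1.52 (SE 0.07, limma FDR 1.18e-05). KIF22 (Kid) is a chromokinesin, which binds chromosome arms and pushes them toward the spindle equator. KIF22 stood at 16.7, 17.7 and 17.3 TPM under CON against 2.93, 1.82 and 3.92 TPM under CDCA. This was the largest fall among the tested kinesins, with a ratio of 0.168 and a log2 change of -2.26 (SE 0.19, limma FDR 0.000127). In CON the mean of KIF22 was below only those of KIF2C, KIF11 and KIF20A among the mitotic kinesins, and in CDCA its libraries overlapped those of KIFC1 and KIF15. KIF18A, which limits microtubule growth at plus ends and damps the swings of chromosomes, stood at 3.31, 3.19 and 2.69 TPM under CON against 1.68, 1.49 and 1.46 TPM under CDCA. Its ratio was 0.504, but on the log2(TPM + 1) scale the change of a weakly expressed gene is understated, and its log2 change was -0.67 (SE 0.10, limma FDR 0.00187).

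**Figure D1:**
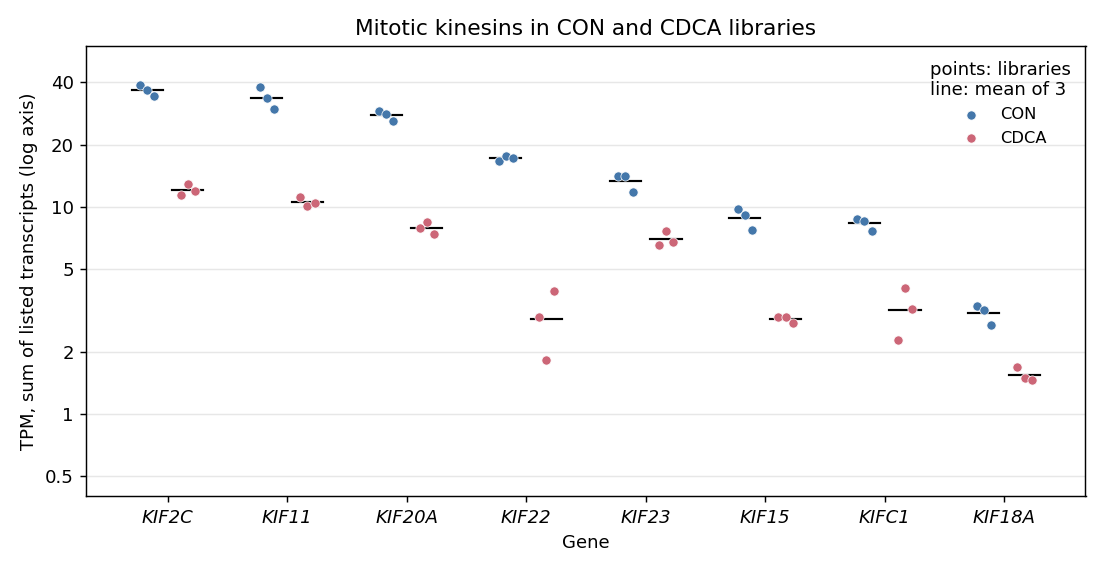
TPM (sum of listed transcripts, log axis) of the 8 tested mitotic kinesins in the 3 CON and 3 CDCA libraries, ordered by the mean in CON; points are libraries and lines are means. The groups did not overlap for any of the 8 genes, from KIF2C at 36.6 and 12.1 TPM to KIF18A at 3.06 and 1.54 TPM.

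KIF20A and KIF23 act later, at the midzone of the anaphase spindle. KIF20A (MKLP2), which brings the chromosomal passenger complex to the midzone, stood at 29.1, 28.1 and 25.9 TPM under CON against 7.88, 8.49 and 7.37 TPM under CDCA. Both groups were tight and far apart, and its log2 change was -1.69 (SE 0.07, limma FDR 9.77e-06). KIF23 (MKLP1), the motor subunit of centralspindlin, stood at 14.1, 14.1 and 11.8 TPM under CON against 6.56, 7.64 and 6.80 TPM under CDCA. Its ratio of 0.524 was the highest of the tested mitotic kinesins, and its log2 fold change of -0.84 (SE 0.09, limma FDR 0.000404) was under the limit for a call. The difference between KIF20A and KIF23 was not tested.

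The 5 mitotic kinesins under the limit on expression were listed at low values. KIF4A, a chromokinesin that also shortens the midzone, stood at 0.80, 1.83 and 1.11 TPM under CON against 0.45, 0.56 and 0.39 TPM under CDCA. The groups did not overlap for KIF4A, but no test was made. KIF20B was listed at 0.31 to 0.63 TPM in CON and at 0.04 to 0.34 TPM in CDCA. KIF18B was above 0 in CON replicate 2 only, at 0.34 TPM, and KIF14 and KIF2B were listed at 0 in all 6 libraries. KIF14 has 1 listed transcript and is a motor of cytokinesis, and a value of 0 in the table can be a failed estimate for its listed transcript.

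The transport kinesins did not share a direction. Of the 13, 7 passed the limit on expression; KIFC3 was called higher in CDCA and none was called lower, whereas 3.51% of all tested genes were called higher. With an FDR under 0.05 and no limit on size, KIFC3 and KIF3C were higher and KIF1C was lower, and the other 4 did not pass. Over all tested genes, 29.3% were higher by this rule. The median log2 fold change of the 7 was 0.14, which became 0.0078 for the same 7 when library totals were computed without the mRNAs encoded by mitochondrial DNA (mtDNA). That scaling moved the median of all tested genes by -0.13, and the share of lower genes among all calls from 52.6% to 67.6%. By the absence of overlap alone, KIF3A, KIF3C and KIFC3 lay above CON in every CDCA library, against 33.7% of all tested genes.

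KIFC3 (ENSSSCG00000002812), a minus-end motor known at the apical side and the adherens junctions of epithelial cells, was listed at 6.77, 9.35 and 9.57 TPM in CON. In CDCA it was listed at 17.4, 17.3 and 20.4 TPM, so that its lowest CDCA library was above its highest CON library. The mean rose from 8.56 ± 1.56 TPM in the CON group (SD, n = 3) to 18.4 ± 1.72 TPM in the CDCA group (SD, n = 3), with a log2 change of 1.03 (SE 0.13, limma FDR 0.000857). This value lay just over the limit, and the call was lost in 4 of the 14 alternatives. The log2 fold change was 0.89 with totals without the mtDNA-encoded mRNAs, 0.98 with each library scaled to the same median ratio, 0.89 without CON replicate 1 and 0.96 without CDCA replicate 3, while the FDR stayed under 0.05 in all of these.

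KIF3C, a kinesin-2 motor that pairs with KIF3A, stood at 12.4, 12.6 and 14.0 TPM under CON against 24.0, 22.7 and 23.2 TPM under CDCA. The groups were far apart, with a ratio of 1.79 and a log2 change of 0.79 (SE 0.06, limma FDR 8.70e-05). KIF3A and KIF3B are the motors that together with KIFAP3 form the heterotrimeric kinesin-2 of ciliary transport. KIF3A stood at 2.42, 2.08 and 1.97 TPM under CON against 2.98, 2.50 and 2.74 TPM under CDCA, with a log2 change of 0.25 (SE 0.10, limma FDR 0.0865). KIF3B stood at 4.63, 6.41 and 5.95 TPM under CON against 6.11, 7.10 and 4.93 TPM under CDCA, and its groups overlapped (log2 fold change 0.08, SE 0.15, limma FDR 0.686). Within each library, the TPM of KIF3C divided by the sum of KIF3A and KIF3B was 1.76, 1.49 and 1.77 in CON and 2.64, 2.36 and 3.02 in CDCA. KIF3C was therefore the most abundant listed kinesin-2 motor in all 6 libraries, and its excess over the other two was larger in every CDCA library.

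KIF1C, a kinesin-3 motor of vesicles, went the other way, with 20.1, 22.2 and 25.6 TPM under CON against 14.5, 14.4 and 16.5 TPM under CDCA. Its groups did not overlap, and its log2 change was -0.55 (SE 0.10, limma FDR 0.00338). In CON it was the most abundant transport kinesin, and in CDCA KIF3C and KIFC3 lay above it. KIF1B, which carries mitochondria and precursors of synaptic vesicles, had means of 1.47 and 1.09 TPM (log2 fold change -0.24, limma FDR 0.235). KIF13A, a motor of recycling endosomes, had means of 4.81 and 5.40 TPM (log2 fold change 0.14, limma FDR 0.325). For both genes the groups overlapped.

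The 6 transport kinesins that were not tested included the 3 heavy chains of conventional kinesin. KIF5B, the form that most cells use, was listed at 0 to 0.51 TPM, KIF5A at 0.40 to 0.79 TPM and KIF5C at 0.02 to 0.08 TPM. The light chains KLC1 and KLC2, which bind these heavy chains, were listed at 13.1 to 18.4 TPM and 48.0 to 66.1 TPM, though the ID matched to KLC2 is named RAB1B in the deposited table, so which gene it measures is unsure. These levels of KIF5B come from 3 listed transcripts, and whether its other transcripts were left out was not tested. KIF1A, a motor of neurons, was listed at 0.02 to 0.04 TPM in CON and at 0.17 to 0.24 TPM in CDCA. KIF17 was at most 0.58 TPM, and KIFC2, at 0.46 to 1.94 TPM, had overlapping groups and a mean of 0.988 TPM, just under the limit. KIF16B, an endosomal motor, was outside the rule because its ID bears no symbol in the deposited table. By its description it stood at 9.62, 9.62 and 9.23 TPM under CON against 13.2, 12.0 and 13.3 TPM under CDCA (log2 fold change 0.40, SE 0.06, limma FDR 0.00188), and it was not called.

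**Figure D2:**
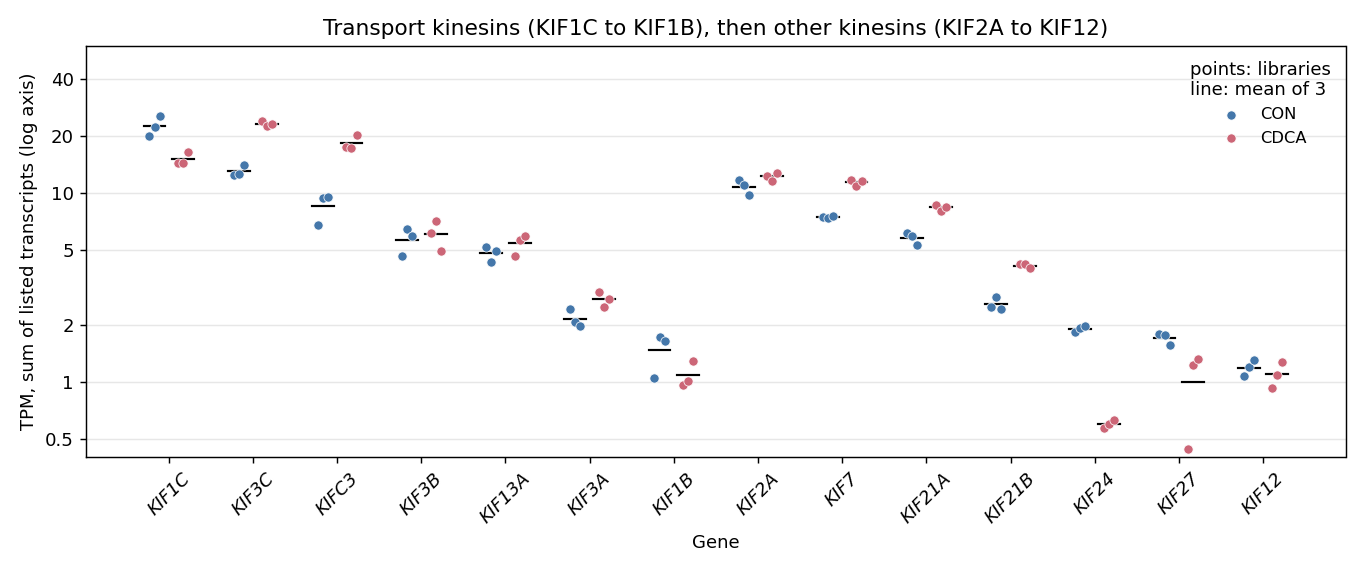
TPM (sum of listed transcripts, log axis) of the 7 tested transport kinesins, KIF1C to KIF1B, and the 7 other tested kinesins, KIF2A to KIF12, in the 3 CON and 3 CDCA libraries; points are libraries and lines are means. KIF3C, KIFC3, KIF3A, KIF7, KIF21A and KIF21B were higher in every CDCA library than in any CON library, and KIF1C, KIF24 and KIF27 were lower. Over all tested genes, 33.7% were higher and 27.8% lower in this way. KIF3A (limma FDR 0.0865) and KIF27 (limma FDR 0.0873) did not pass an FDR of 0.05.

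Among the 12 other kinesins, 7 were tested and none was called, where 3.90% of all tested genes were called lower and 3.51% higher. KIF24, which takes microtubules apart at the centriole and holds back the cilium, stood at 1.83, 1.93 and 1.98 TPM under CON against 0.57, 0.60 and 0.63 TPM under CDCA. Its ratio of 0.314 equalled that of KIF11 to 3 digits, but at this low level the log2 change was -0.86 (SE 0.10, limma FDR 0.000621). With a pseudocount of 0.1 TPM it was -1.52 and KIF24 was called lower. KIF24 and KIF27 passed the limit on expression through the CON group, since their means in CDCA were 0.600 and 0.997 TPM. KIF27 stood at 1.80, 1.77 and 1.57 TPM under CON against 0.44, 1.23 and 1.32 TPM under CDCA (log2 fold change -0.47, limma FDR 0.0873).

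Of these 7, KIF7, KIF21A and KIF21B were higher in CDCA with an FDR under 0.05, where 29.3% of all tested genes were. KIF7, which acts at the tip of the cilium in Hedgehog signaling, stood at 7.43, 7.38 and 7.53 TPM under CON against 11.8, 10.9 and 11.6 TPM under CDCA (log2 fold change 0.56, SE 0.06, limma FDR 0.000318). KIF21A and KIF21B restrain the growth of microtubule ends. KIF21A rose from 5.79 ± 0.405 TPM in the CON group (SD, n = 3) to 8.38 ± 0.321 TPM in the CDCA group (SD, n = 3) and KIF21B from 2.58 ± 0.209 to 4.13 ± 0.101 TPM. When the highest listed transcript stood for KIF21B, of whose gene sum it held 56.6%, the log2 fold change was 0.26 (limma FDR 0.141). KIF2A, of the same family as KIF2C, takes microtubules apart also outside mitosis. It had overlapping groups with means of 10.8 and 12.2 TPM, a log2 change of 0.17 (SE 0.08, limma FDR 0.12). KIF12 had means of 1.19 and 1.10 TPM (limma FDR 0.678). Of the 5 that were not tested, KIF9 was listed at 0.65 to 0.98 TPM with overlapping groups, KIF19 and KIF26B were at most 0.06 TPM, and KIF6 and KIF26A were listed at 0 throughout.

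**Figure D3:**
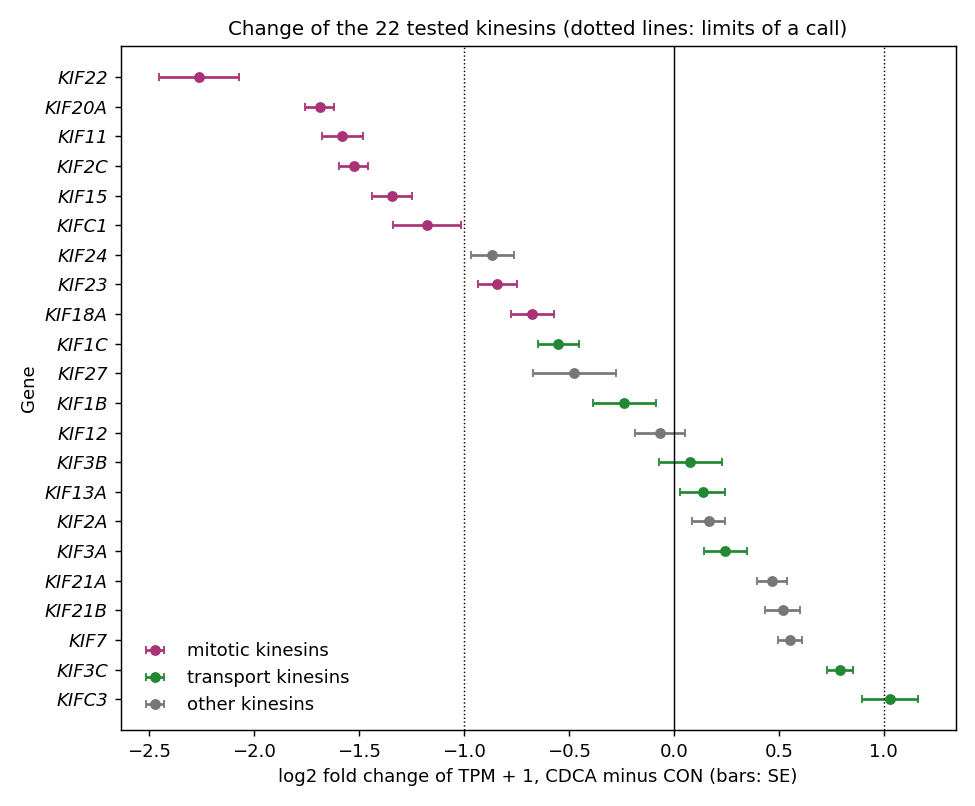
Log2 fold change of TPM + 1 (CDCA minus CON, with its SE from limma) of the 22 tested kinesins, colored by role; dotted lines mark the limits of a call at -1 and 1. On this scale the 6 largest falls, from KIF22 (-2.26) to KIFC1 (-1.18), were mitotic kinesins, and KIFC3 (1.03) was the only gene past the upper limit. With a pseudocount of 0.1 TPM, KIF24, of the other kinesins, stood at -1.52 and fell more than KIFC1 at -1.39.

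The summed TPM of the 38 kinesins is given by role as a description. The sums hold only listed transcripts under a KIF or KIFC symbol. They leave out CENPE and 4 IDs described as kinesin motors without a symbol, KIF16B among them. They count genes such as KIF5B at their low listed values, and the shares depend on these limits. The listed TPM of all 38 kinesins summed to 248, 248 and 235 in CON and to 160, 161 and 167 in CDCA. Mitotic kinesins summed to 160, 154 and 138 TPM in CON and to 47.4, 50.2 and 48.7 TPM in CDCA. Transport kinesins summed to 54.4, 61.8 and 66.1 TPM in CON and to 73.4, 72.8 and 76.9 TPM in CDCA, so that neither sum overlapped between the groups. Mitotic kinesins made up 61.8% ± 2.91 (SD, n = 3) of the kinesin total in CON, whereas they made up 29.9% ± 0.997 (SD, n = 3) in CDCA. Within each library, where scaling cancels, the mitotic sum divided by the transport sum was 2.95, 2.49 and 2.09 in CON and 0.645, 0.689 and 0.633 in CDCA. For the pair of KIF11 and KIF3C, the TPM of KIF11 divided by that of KIF3C was 3.07, 2.65 and 2.11 in CON and 0.468, 0.445 and 0.449 in CDCA. Not every pair was apart in this way: KIF23 divided by KIF1C, which fell as well, overlapped between the groups. No test was made between the roles, since the members were chosen with results of these data known.

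**Figure D4:**
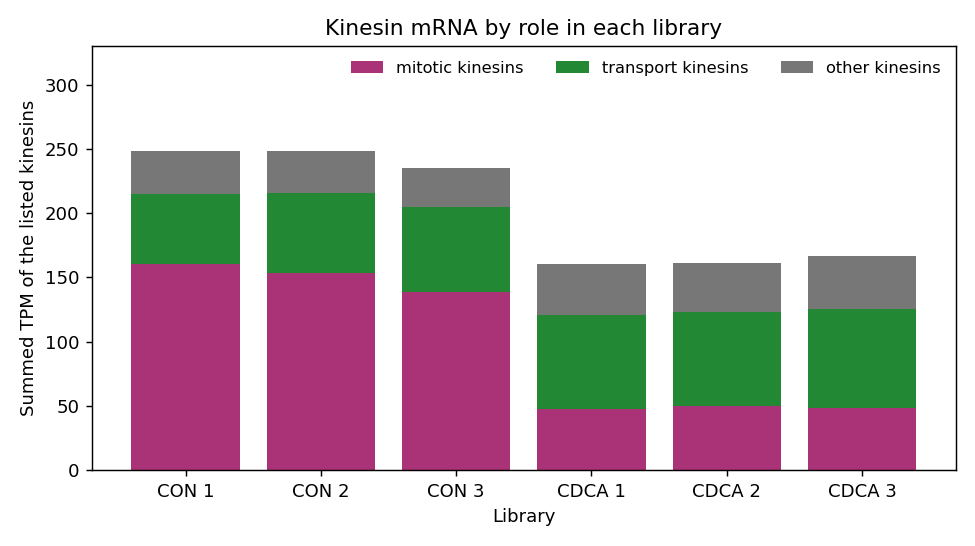
Summed TPM of the listed kinesins in each library, stacked by role. The mitotic part was 138 to 160 TPM in the CON libraries and 47.4 to 50.2 TPM in the CDCA libraries, while the transport part was 54.4 to 66.1 TPM and 72.8 to 76.9 TPM.

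CON replicate 1 had the highest value for 7 of the 8 tested mitotic kinesins, 1 of them tied with CON replicate 2, and CON replicate 3 for none. For the transport kinesins CON replicate 3 was the highest for 3 of 7. Among the CDCA libraries the highest value of the mitotic kinesins was in replicate 2 for 4 of 8, in replicate 1 for 3 and in replicate 3 for 1. When single libraries were left out, the log2 fold change of KIF11 stayed between -1.67 and -1.49, that of KIF2C between -1.57 and -1.48 and that of KIF22 between -2.45 and -2.05. All 6 mitotic kinesins that were called stayed called in each of the 14 alternatives.

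The changes were carried by the main listed transcript of each mitotic kinesin. Of the 8 tested, 2 had a single listed transcript, and in the others the highest listed transcript held at least 84.1% of the gene's mean TPM. A second transcript reached an appreciable level in KIF20A, KIF23 and KIF2C. The second transcript of KIF20A stood at 2.56, 2.90 and 3.03 TPM under CON against 1.66, 0.74 and 0.57 TPM under CDCA, a ratio of 0.350 beside 0.279 for the main transcript. In KIF23 the ratios were 0.390 for the second and 0.528 for the main transcript. The second transcript of KIF2C fell to 0.10 TPM in CDCA replicate 1 but was listed at 1.75 and 1.68 TPM in CDCA replicates 2 and 3, where CON replicate 3 had 1.68 TPM. For KIFC3, which rose, the main transcript had a ratio of 2.15 and the second of 1.77. The groups of this second transcript overlapped, with 0.72, 0.96 and 1.66 TPM under CON against 2.53, 1.32 and 2.07 TPM under CDCA.

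From a list of 16 genes whose proteins bind, guide or work beside the mitotic kinesins, 15 were matched, 12 were tested and 9 were called lower, against 3.90% of all tested genes. The median log2 fold change of the 12 was -1.44, beside 0.05 for all tested genes, and no test compared the list with the kinesins. AURKB and CDCA8, of the chromosomal passenger complex, had the largest falls among the tested partners. AURKB is the kinase that controls KIF2C, and KIF20A carries the complex. AURKB stood at 20.8, 19.6 and 19.9 TPM under CON against 3.68, 3.78 and 3.32 TPM under CDCA (log2 fold change -2.20, SE 0.07, limma FDR 3.33e-06). The subunits CDCA8 and BIRC5 fell from 29.0 ± 1.37 to 7.46 ± 0.730 TPM and from 44.7 ± 0.436 to 14.7 ± 1.07 TPM, and the scaffold INCENP was listed at no more than 0.08 TPM. PLK1, the kinase that binds KIF20A, fell from 7.17 ± 0.441 to 1.90 ± 0.158 TPM.

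PRC1, the midzone bundler to which KIF4A binds, stood at 9.27, 7.65 and 8.54 TPM under CON against 3.10, 2.99 and 0.99 TPM under CDCA. HMMR and NUSAP1, microtubule-binding proteins of the spindle, fell from 16.8 ± 1.94 to 5.83 ± 0.753 TPM and from 15.4 ± 1.25 to 4.33 ± 1.21 TPM. ECT2, the activator of RhoA at the midzone, was also called lower. RACGAP1, which forms centralspindlin with KIF23, was under the limit on expression, at 0.67 to 1.54 TPM in CON and 0.39 to 0.63 TPM in CDCA. ECT2 lay at the limit (log2 fold change -1.02) and was not called in 4 of the 14 alternatives, namely with its highest listed transcript (-0.63, limma FDR 0.0166) and without CON replicate 1 (-0.996), CDCA replicate 1 (-0.91) or CDCA replicate 2 (-0.96). CENPE, a kinesin of the kinetochore that does not bear a KIF symbol, stood at 5.14, 5.48 and 4.03 TPM under CON against 1.42, 1.41 and 1.75 TPM under CDCA (log2 fold change -1.21, SE 0.13, limma FDR 0.000313). When the highest listed transcript stood for CENPE, it was not called (-0.66, limma FDR 0.377). TPX2, which recruits KIF11 and KIF15 to the spindle, and CIT, a kinase of cytokinesis, had log2 fold changes of -0.74 and -0.88 with an FDR under 0.05, and with a pseudocount of 0.1 TPM both were called lower (-1.09 and -1.08). NUMA1, which works with dynein at the poles, was the only tested partner higher in CDCA, at 5.97 to 6.96 TPM in CON and 7.45 to 8.70 TPM in CDCA (log2 fold change 0.26, limma FDR 0.0439), and its FDR was under 0.05 in only 4 of the 14 alternatives.

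From a list of 18 adaptors, light chains and other partners of the transport kinesins, 17 were matched and 16 tested, and none was called. The median log2 fold change was 0.07, and with an FDR under 0.05 there were 6 higher and 3 lower, where 29.3% of all tested genes were higher and 23.9% lower by this rule. These counts lay near the shares over all genes, and 1 of the 3 lower is the ID matched to KLC2 and named RAB1B. KIFAP3 is the adaptor subunit of kinesin-2 and was picked here with its values known. It stood at 27.3, 27.2 and 24.2 TPM under CON against 50.1, 50.8 and 51.4 TPM under CDCA (log2 fold change 0.93, SE 0.06, limma FDR 3.87e-05), and like KIF3C it rose by less than the limit for a call. Of the light chains, KLC4 rose from 6.96 ± 0.559 to 12.2 ± 1.58 TPM and KLC1 from 13.3 ± 0.232 to 17.4 ± 1.34 TPM, both named after their values were seen. KLC3 had means of 4.21 and 3.30 TPM (limma FDR 0.236) with overlapping groups. The ID matched to KLC2 fell from 62.1 ± 3.71 to 48.4 ± 0.371 TPM (log2 fold change -0.35, SE 0.05, limma FDR 0.00138). As its deposited name is RAB1B, no direction is drawn for the light chains from this value. The other two partners that were lower with an FDR under 0.05, also named with their values known, were TRAK1 and MAPK8IP3. TRAK1, the adaptor between kinesin and mitochondria, had the largest fall of the list, from 3.14 ± 0.298 to 1.98 ± 0.171 TPM (log2 fold change -0.48, SE 0.10, limma FDR 0.00731). MAPK8IP3, a scaffold that binds light chains, fell from 4.11 ± 0.339 to 3.12 ± 0.0917 TPM (log2 fold change -0.31, SE 0.09, limma FDR 0.0212).

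**Figure D5:**
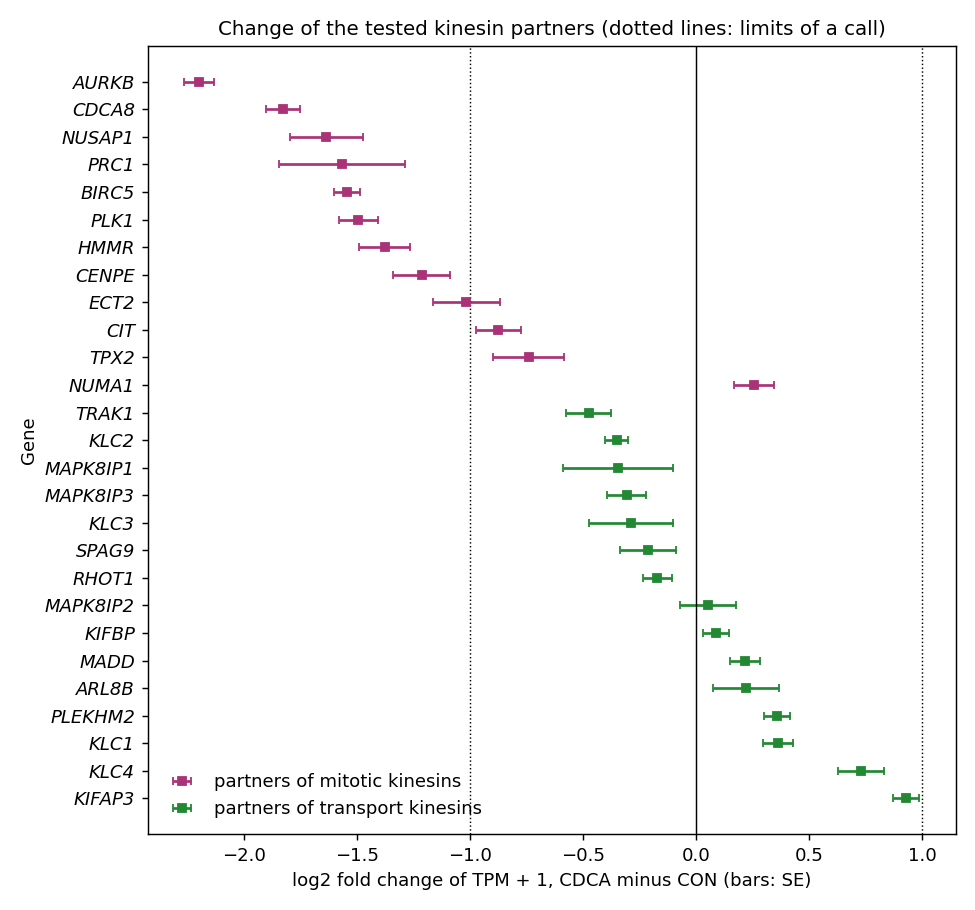
Log2 fold change of TPM + 1 (CDCA minus CON, with its SE from limma) of the 12 tested partners of mitotic kinesins and 15 of the 16 tested partners of transport kinesins; dotted lines mark -1 and 1. All but NUMA1 of the mitotic partners were below 0, down to AURKB at -2.20, and the plotted transport partners lay between -0.48 and 0.93.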

How the data were processed

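The 6 libraries were prepared with an Illumina TruSeq kit from total RNA. The authors quantified them with RSEM and deposited TPM values for 63041 transcripts without transcript IDs. The submitters' processing notes name Bowtie 0.12.2 and the mouse build mm10 without a role, while the gene IDs are pig Ensembl IDs; the genome build used for these values is not given in the sources used here, so no coordinates are printed. Here, the TPM of listed transcripts were summed per gene ID (112 transcripts for the 38 kinesins). Symbols of 37 of the 38 matched a table of Ensembl IDs; KLC1 and KIF16B were named by the deposited description. Groups came from the sample titles.

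CDCA was compared with CON by limma 3.58.1 under R 4.3.3, with a variance trend in the moderated test, on the log2(TPM + 1) scale. Genes had to average 1 TPM or more over the libraries, with Benjamini-Hochberg adjustment over the 8708 tested genes. The authors' edgeR test needs counts and was not used. The steps were tested on simulated data. The members, role lists, partner lists and tests were chosen with earlier results of these data known. The kinesins named are all 38, and the partners named include those called and the most abundant tested members of each list. TPX2, CIT, NUMA1, INCENP, RACGAP1 and KLC3 were named outside this rule, and other later additions are marked. The alternatives were a pseudocount of 0.1 TPM, no filter, totals without the 13 mtDNA-encoded mRNAs, scaling to the same median ratio, rescaling to 1000000, the highest listed transcript, the replicate number as a block, no variance trend and each library left out. After their values were seen, the same alternatives were run for all tested partners of mitotic kinesins, KIFAP3, KLC1, KLC4 and the ID matched to KLC2. They were also run for KIF16B, DYNLL1, DYNLT1, DCTN2 and DCTN6. TRAK1, MAPK8IP3, KLC3, DYNC1H1 and the remaining listed partners were not put through them. Protein and promoter sequences were not used here. The list counts hold all tested partners, and the values of 1 tested transport partner are not reported here or plotted.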

Additional observations from a re-analysis of the deposited data

How the results depend on the processing

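Of the 22 tested kinesins, KIFC3 lost its call in 4 alternatives, KIF24 gained one with a pseudocount of 0.1 TPM (log2 fold change -1.52) and with the listed TPM rescaled to 1000000 (-1.23), and KIF3B, never past an FDR of 0.05, changed sign with totals without the mtDNA-encoded mRNAs (-0.053), without CON replicate 1 (-0.038) and without CDCA replicate 2 (-0.028), with a range of -0.038 to 0.20 over the fits that each left out 1 library. The count of 6 mitotic kinesins called lower and of 0 transport kinesins called lower was the same in all 14 alternatives. The median of the mitotic kinesins was -1.59 with a pseudocount of 0.1 TPM and -1.18 when low values were kept, which let 11 in place of 8 be tested; the 8 kept a median of -1.43. The count of transport kinesins called higher was 0 with totals without the mtDNA-encoded mRNAs and with the median ratio scaling, and 0 to 1 with each library left out. The transport median was -0.022 with totals without the mtDNA-encoded mRNAs, where 8 in place of 7 passed the filter, and 0.0078 for the same 7. With each library left out it ran from 0.039 to 0.20, and for the same 7 from 0.11 to 0.20. The median of the other kinesins was 0.017 with no filter (10 tested), 0.025 without the mtDNA-encoded mRNAs in the totals (7 tested) and 0.060 with the listed TPM rescaled (8 tested). For the same 7 as before it was 0.17 with no filter and 0.20 with the listed TPM rescaled, and it ran from 0.099 to 0.22 with each library left out. The causes of the other changes were not tested.

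Same-numbered replicates of CON and CDCA did not deviate together (r of -0.035, -0.092 and -0.051 across the tested genes). The deviations were taken from the mean of only 3 libraries per group, so these values cannot settle whether same-numbered libraries were handled together. With the replicate number as a block, 6 mitotic kinesins were called lower, 1 transport kinesin higher and 0 lower, the 3 medians were -1.43, 0.14 and 0.17, and over all genes 343 were called lower and 309 higher, against 340 and 306 without it. Having only 3 libraries per group and TPM values without read counts limits what can be said of kinesins near or under 1 TPM.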

Other observations

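Cytoplasmic dynein, the motor that walks opposite to most kinesins, and its activator dynactin were taken from a list of 19 genes, of which 18 were tested and none was called. With an FDR under 0.05, 8 were higher and 2 lower in CDCA, where 29.3% of all tested genes were higher and 23.9% lower, and the median log2 fold change was 0.19 beside 0.05 for all tested genes. The heavy chain DYNC1H1, picked here with its values known, stood at 35.5, 33.0 and 33.7 TPM under CON against 31.9, 35.1 and 33.2 TPM under CDCA, so that its groups overlapped (limma FDR 0.709). The light chain DYNLL1, which also binds many proteins other than dynein, was the most abundant listed member. It stood at 174, 174 and 173 TPM under CON against 87.8, 91.6 and 90.4 TPM under CDCA (log2 fold change -0.94, SE 0.03, limma FDR 5.21e-06), and with totals without the mtDNA-encoded mRNAs it was called lower (-1.10). DYNLT1, another light chain, fell from 90.4 ± 6.99 to 72.4 ± 1.55 TPM (log2 fold change -0.31, SE 0.06, limma FDR 0.00493). Of the dynactin subunits, named after their values were seen, DCTN2 rose from 46.2 ± 6.93 to 73.8 ± 9.89 TPM (limma FDR 0.00556), though its FDR was over 0.05 in 1 of the 14 alternatives (0.0533 with the highest listed transcript), and DCTN6 from 32.7 ± 1.03 to 46.3 ± 1.59 TPM (limma FDR 0.000199).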
